A study of Bos taurus with 8 samples.

Results

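The genes described here make eicosanoids, the signalling lipids derived from arachidonic acid, and were measured in bovine blood neutrophils before and after calving. The group holds 9 genes, ALOX15, ALOX5AP, ALOX5, LTA4H, LTC4S, TBXAS1, PTGS1, PTGS2 and PLA2G4A, out of 12639 genes that could be named on the array. It was made by taking every probe, other than control probes, whose transcript accession belongs to 1 of these genes, which gave 19 of 43653 probes. Neutrophil RNA came from jugular vein blood of female Holstein Friesian cows, a dairy breed, for which the labels give no treatment, genotype or age. It was labelled with Cy3 and hybridised in 1 colour to Agilent bovine arrays. The before-calving group (labelled C-14) has 4 arrays of samples taken 14 days ahead of the expected calving date, and the after-calving group (labelled C+7) has 4 arrays of samples taken 7 days after the actual one. The series text names 3 cows, so a cow must stand behind more than 1 array or sample at each time, and the labels do not say which.

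Arachidonic acid is cut from membrane phospholipid by phospholipase A2 and then enters competing routes. In neutrophils 5-lipoxygenase, together with its helper protein FLAP, makes the precursor of the leukotrienes, of which leukotriene B4 recruits further neutrophils. The 12/15-lipoxygenase route makes hydroxylated fatty acids and precursors of lipoxins and related mediators, and the cyclooxygenase route makes prostaglandins and thromboxane.

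On the 6 brighter arrays, 3 of each time point, 3 of the 9 genes passed the filter on dim probes and 2 of these were called, where 4.96% of all features were. ALOX15 was 8.25-fold lower after calving and ALOX5AP 5.83-fold higher, and both calls were lost under some of the other processing settings. TBXAS1 did not pass the test, and the other 6 genes did not pass the filter. Over all 8 arrays no gene of the group passed the filter, and none was called when it was dropped.

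The arrays differed widely in brightness, and this sets what can be said of every gene. A probe is called well above background by the scanner's extraction software, and 2225 to 4493 probes had that call on 6 arrays. Replicate 4 of each time point stood apart, with 780 probes before calving and 390 after. All 4 before-calving arrays share a slide and a scan, and all 4 after-calving arrays share another, so in each comparison below the slide and the time point cannot be told apart. The processed signal of before-calving replicate 3 carries a surface correction by the software, and there it lowered ALOX15 from 993 to 533 and TBXAS1 from 85.3 to 28.6. Other probes were higher in the processed signal of that array. A PTGS2 probe read 217 against -4.39 background-subtracted, and an LTC4S probe 87.7 against -7.88, neither well above background. The background-subtracted signal lacks the surface correction and is the signal given below unless the processed one is named.

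Of the 9 genes, 4 had a probe well above background on at least 1 array, which is 4 of 19 probes. Over the whole array 32.5% of named genes and 17.0% of probes had such a call. ALOX15, ALOX5AP and TBXAS1 each had 1 probe with the call on the 6 brighter arrays and on neither replicate 4. ALOX5 had it on before-calving replicate 3 and on no other array. PLA2G4A, LTA4H, LTC4S, PTGS1 and PTGS2 had it on none. The 15 probes without the call lay between -18.6 and 14.7 signal units on the 8 arrays, whereas the lowest signals with the call lay between 16.8 and 27.2. Of the 120 readings of those 15 probes, 15 carried the weaker call of positive and significant. At this signal a difference between the times was not detectable for these probes, and a low signal does not show that the transcript is absent. The scanner files give neither the sequence nor the position of a probe, so the part of the transcript it reads is not known here.

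**Figure D1:**
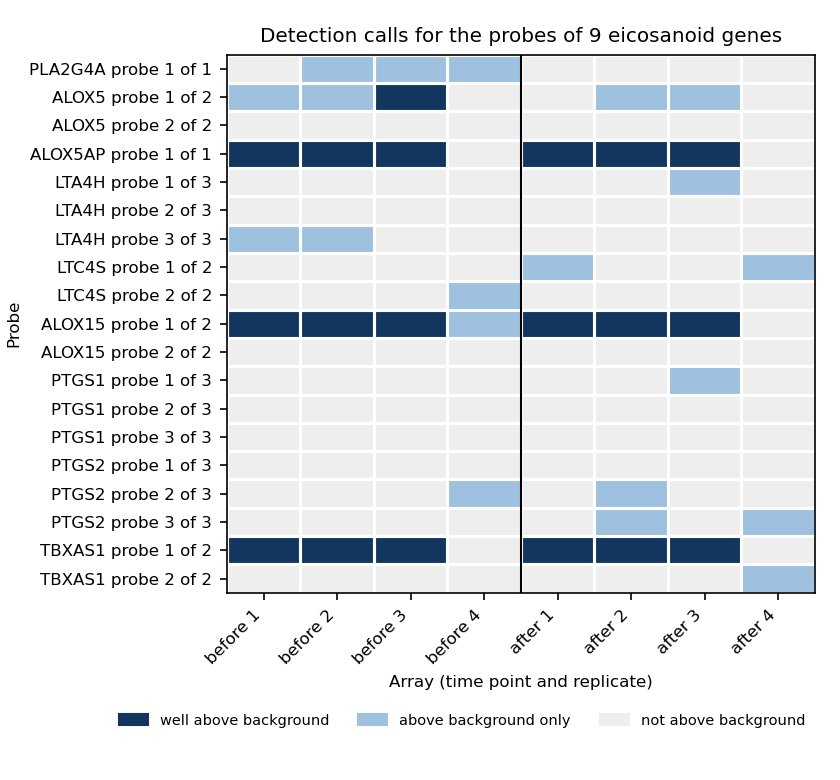
Detection call of each of the 19 probes (rows, in the order of the route) on each of the 8 arrays (columns, by time point and replicate). Dark cells mark a probe well above background, light blue cells the weaker call of positive and significant, and grey cells neither. Only ALOX5AP, ALOX15 and TBXAS1 have a probe with the stronger call on 6 arrays, and ALOX5 has it on 1.

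PLA2G4A codes for the cytosolic phospholipase A2 that releases arachidonic acid. Its only probe gave -0.56, 13.7, 10.9 and 10.5 on before-calving replicates 1 to 4, and 2.86, -2.88, 0.27 and -4.20 on after-calving replicates 1 to 4. The weaker call was made on 3 before-calving arrays and on no after-calving array. All 8 readings were below the lowest signal well above background on any array, and the gene passed the filter of neither fit.

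ALOX5 codes for 5-lipoxygenase, the enzyme that begins leukotriene synthesis. Its brighter probe gave 15.01, 11.5, 35.7 and -4.01 before calving and -1.85, 13.9, 14.9 and 1.15 after calving, in the order of the replicates. The 35.7 on before-calving replicate 3 is the only reading well above background, and the groups overlapped. Its second probe gave between -14.0 and 2.96 and had neither call on any array. In processed signal on the 8 arrays, scaled by each array's 75th percentile, the brighter probe differed by 0.30 on the log2 scale (after minus before). This was no stable direction: it was -0.15 without before-calving replicate 3, -0.49 without after-calving replicate 4, and 0 with the floored background-subtracted signal.

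ALOX5AP codes for FLAP, the membrane protein that hands arachidonic acid to 5-lipoxygenase, and has 1 probe on the array. Its signal before calving was 187, 102, 397 and 2.29 on replicates 1 to 4. After calving it was 546, 713, 912 and 4.02. On the 3 brighter arrays of each time point every after-calving reading was above every before-calving reading, while both replicate 4 arrays were at background. After scaling each of the 6 brighter arrays by the 75th percentile of the probes detected on all of them, the log2 level was -1.55, -1.75 and -0.88 before calving and 0.95, 0.93 and 1.57 after. The mean thus went from -1.40 ± 0.46 to 1.15 ± 0.36 (SD, n = 3 each). The difference was 2.54 (SE 0.31), and it passed limma's test over all features (adjusted p = 0.0220). It was the 8th in size among the 35 features called higher after calving, some of which were at the floor before calving and so have only a lower limit.

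The call for ALOX5AP depended on 4 of the 6 arrays. Leaving out before-calving replicate 1 gave limma's adjusted p = 0.0601 (difference 2.45), and leaving out after-calving replicate 1, 2 or 3 gave 0.0644 (2.67), 0.0859 (2.66) and 0.0788 (2.36). Scaling over all probes lowered the difference to 1.93, with limma's adjusted p = 0.0760. That scaling moved the median over all features from -0.07 to -0.58, and relative to that median the difference was 2.52, against 2.61 in the scaling used above. The call was also lost with the floor 1 log2 unit higher (2.54, limma's adjusted p = 0.0602), the processed signal (2.48, 0.133) and the deposited series matrix (3.49, 0.954). It was kept with the normexp background correction (1.95, limma's adjusted p = 0.0415). That correction moved the median of all features to 0.66, and relative to that median the difference was only 1.28. The difference was above 0 in every alternative run, between 1.93 and 3.49 on the 6 brighter arrays and between 1.27 and 3.05 on the 8. With before-calving replicate 4 added the call was kept (1.93, limma's adjusted p = 0.0113). All 4 before-calving arrays were at the floor there, so that 1.93 is only a lower limit and the before-calving values had no spread.

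LTA4H turns leukotriene A4 into leukotriene B4, and LTC4S conjugates it with glutathione to leukotriene C4. The 3 LTA4H probes lay between -7.26 and 9.09 and the 2 LTC4S probes between -7.88 and 9.22 over the 8 arrays. The highest LTA4H reading was on before-calving replicate 1 and the highest LTC4S reading on after-calving replicate 4. No reading of either gene was well above background.

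ALOX15 codes for the 12/15-lipoxygenase, which is known for its abundance in eosinophils and airway epithelium. Its brighter probe gave 564, 406, 993 and 12.8 on before-calving replicates 1 to 4, and 40.3, 55.9, 42.5 and 0.36 on after-calving replicates 1 to 4. Among the brighter arrays the lowest before-calving reading was far above the highest after-calving one, and on the dim pair the before-calving array was also the higher, at a signal below the stronger call. Scaled to the 6 brighter arrays, the log2 level was 0.04, 0.24 and 0.44 before calving and -2.81, -2.74 and -2.86 after. The means were 0.24 ± 0.20 and -2.80 ± 0.06 (SD, n = 3 each). The difference of -3.04 (SE 0.14) passed limma's test over all features (adjusted p = 0.00207), and no feature called lower had a larger one (rank 1 of 62). Several of those features were at the floor after calving and so have only a lower limit. The SE of ALOX15 depended on the setting. For the same difference it was 0.35 when only features well above background on every array were tested (limma's adjusted p = 0.00242). It was also 0.35 with the floor 1 log2 unit lower (limma's adjusted p = 0.00275).

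Leaving out any 1 of the 6 arrays kept the ALOX15 call, with differences between -3.16 and -2.96 and limma's adjusted p between 0.00447 and 0.0376. The call was lost when before-calving replicate 4 was added (difference -0.63, limma's adjusted p = 0.797). With that dim array the common floor was at log2 -2.16 in place of -3.54, the scaling rested on 440 probes in place of 1111, and the 3 after-calving arrays and before-calving replicate 4 itself were all at the floor, so -0.63 does not measure the size of the difference. It was also lost with the normexp background correction (-1.53, limma's adjusted p = 0.144), which moved the median of all features to 0.66. Relative to that median the difference was -2.19, against -2.98 in the fit above. With the processed signal it was -2.85 (limma's adjusted p = 0.0505) and in the deposited series matrix -1.84 (0.954), neither past the threshold.

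The second ALOX15 probe carries the same transcript accession and disagrees with the first. It lay between -13.3 and -1.56 on the 8 arrays, with neither detection call on any of them, also where the first probe read 993. So the ALOX15 result rests on 1 probe. In the gene table used for names, ALOX15 is followed by ALOX12E and ALOX12, which code for other lipoxygenases. ALOX12 had no probe well above background on any array, and ALOX12E had 1 probe with that call on 1 before-calving array. Whether the ALOX15 probe also reads transcripts of these neighbours was not tested.

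**Figure D2:**
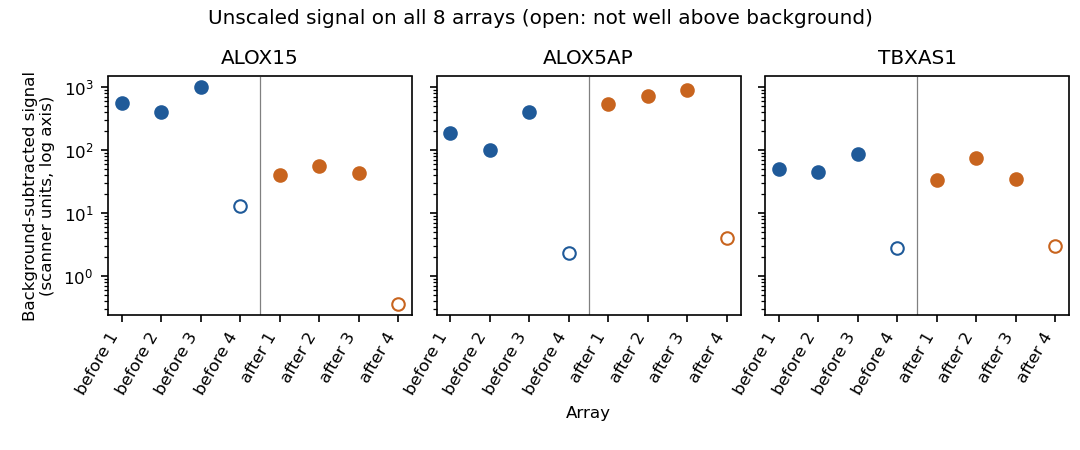
Background-subtracted signal in scanner units (log axis) of the detected probe of ALOX15, ALOX5AP and TBXAS1 on each of the 8 arrays, before calving in blue and after calving in orange. Open circles are readings that are not well above background. ALOX15 reads 406 to 993 on before-calving replicates 1 to 3 and 40.3 to 55.9 on after-calving replicates 1 to 3, ALOX5AP is higher after calving on the same arrays, and replicate 4 is at or near background for each gene.

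PTGS1 and PTGS2 code for the constitutive and the inducible cyclooxygenase. The 3 PTGS1 probes lay between -18.6 and 6.99 and the 3 PTGS2 probes between -5.05 and 14.7. The highest reading of either gene, 14.7 for PTGS2, was on after-calving replicate 2, where the other PTGS2 probes read 8.49 and -3.55. None of these readings was well above background. PTGS2 lies beside PLA2G4A in the gene table, and both were below the stronger call on all 8 arrays.

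TBXAS1 codes for thromboxane A synthase, known for its abundance in platelets and monocytes. Its brighter probe gave 49.99, 44.2, 85.3 and 2.77 before calving and 33.3, 74.2, 34.99 and 3.01 after calving. The groups overlapped. On the 6 brighter arrays the scaled log2 level was -3.17 ± 0.26 before calving and -2.85 ± 0.45 after (SD, n = 3 each), near the floor of -3.54. The difference of 0.32 (SE 0.28) did not pass limma's test (adjusted p = 0.590), and its sign turned to -0.29 when arrays were scaled over all probes. Its second probe lay between -4.20 and 9.06 and was never well above background.

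**Figure D3:**
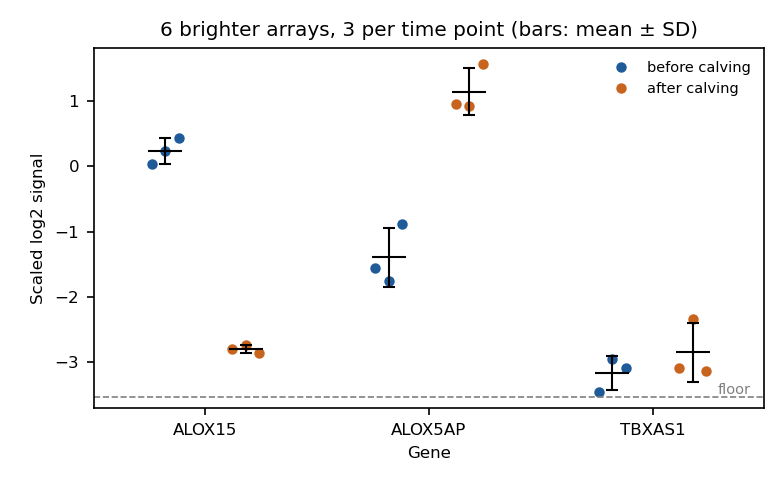
Scaled log2 signal of ALOX15, ALOX5AP and TBXAS1 on the 6 brighter arrays, each point an array and each bar the mean ± SD of 3. The dashed line is the common floor at -3.54. The time points are apart for ALOX15 (0.24 against -2.80) and for ALOX5AP (-1.40 against 1.15), and overlap for TBXAS1.

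In the fit of the 6 brighter arrays 3 of the 9 genes were tested and 2 were called, 1 higher and 1 lower after calving. Of all 1954 features tested there, 4.96% were called, 1.79% higher (35) and 3.17% lower (62). The count of 97 features changed with the arrays: it was 60 when before-calving replicate 3 was left out, 47 when after-calving replicate 1 was, and 6 without either after-calving replicate 2 or replicate 3. The split between directions changed with the scaling, to 13 higher and 86 lower when scaled over all probes and to 44 higher and 3 lower with normexp. All p-values count arrays as separate samples, although cows are fewer than arrays at each time.

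In the fit of all 8 arrays, on processed signal scaled by the 75th percentile, none of the 9 genes passed the filter, because none had a probe with the stronger call on all 4 arrays of either time. Of the 442 features tested 0 were called (0% of them) and 6 had an unadjusted p under 0.05 by limma. The ALOX15 probe, measured on 3 of 4 arrays of each time point, differed by -2.15 as a description. Its time points did not overlap, although they did after scaling over all probes, quantile normalisation or normexp, with the floored background-subtracted signal, and in the deposited series matrix. ALOX5AP differed by 2.28 and TBXAS1 by 0.97, both with overlapping time points. Without before-calving replicate 3 the TBXAS1 value was 0.33, without before-calving replicate 2 it was 1.49, and with the floored background-subtracted signal it was 0. With no filter all 9 genes entered the fit of 8 arrays and none was called, with an unadjusted p by limma of 0.0808 for ALOX15, 0.0643 for ALOX5AP and 0.430 for TBXAS1 (adjusted p = 0.9997 for each).

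A ratio of 2 genes within an array does not depend on how arrays are scaled. Because each probe has its own brightness, the ratio has no meaning as a level, and only its shift between the times is described. The log2 ratio of ALOX5AP to ALOX15 was -1.59, -2.00 and -1.32 on the brighter before-calving arrays and 3.76, 3.67 and 4.42 on the brighter after-calving arrays. The arrays of the time points were apart, with a shift of 5.59 (SE 0.31, exact two-sided permutation test p = 0.1, the smallest that 3 against 3 allows). On these arrays every unscaled ALOX5AP reading was higher after calving and every ALOX15 reading lower. The separation of their ratio and its p follow from those readings and are no further test. Set against TBXAS1, the ALOX15 ratio also moved: the log2 ratio of TBXAS1 to ALOX15 went from -3.41 ± 0.19 to -0.05 ± 0.40 (SD, n = 3 each; exact p = 0.1). On these arrays TBXAS1 stayed between 33.3 and 85.3, while ALOX15 read at least 406 before calving and at most 55.9 after. This separation and its p thus also follow from the ALOX15 readings and are no further test. The log2 ratio of ALOX5AP to TBXAS1 went from 1.77 ± 0.52 to 4.00 ± 0.72 with no overlap (exact p = 0.1). With the processed signal, which carries the surface correction on before-calving replicate 3, that last ratio overlapped between the times (shift 1.74, exact p = 0.2). The ratio of ALOX5AP to ALOX15 was apart between the times with the processed signal too (shift 5.33, exact p = 0.1), which again follows from the separate readings.

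**Figure D4:**
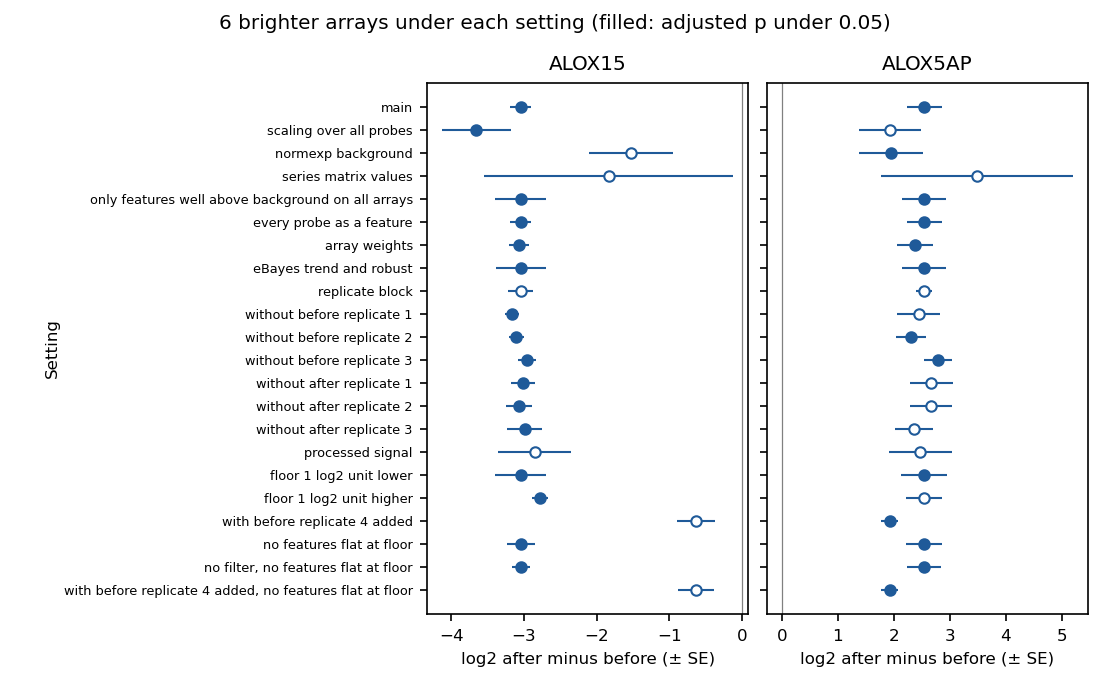
Difference after minus before calving on the log2 scale (± SE) for ALOX15 and ALOX5AP on the 6 brighter arrays under each processing setting, 1 row per setting. Filled circles passed limma's adjusted p of 0.05. ALOX15 is below 0 and ALOX5AP above 0 in every row, and the rows with before-calving replicate 4 added (-0.63) and with normexp (-1.53) hold the smallest ALOX15 differences.

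Beyond these genes, a list of 89 other genes of the pathway was read on the same arrays. Of these, 65 had a probe and 20 had a probe well above background on at least 1 array, where 32.5% of all named genes did. On the 6 brighter arrays 4 passed the filter and 0 were called. The median difference of those 4 was -0.08, against -0.07 for all features. ANXA1, which codes for annexin A1, a glucocorticoid-induced protein that restrains arachidonate release, was bright on 7 arrays and differed by 0.15 (SE 0.54). MBOAT7, an acyltransferase that returns arachidonate to phosphatidylinositol, was at -0.43 (SE 0.33), and GPX1, a glutathione peroxidase, at -0.30 (SE 0.45).

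COTL1 codes for coactosin-like protein, a binding partner of 5-lipoxygenase. Its signal was 490, 63.7, 3605 and 13.0 before calving and 870, 1800, 1433 and -1.55 after calving. Before-calving replicate 2 was low and replicate 3 the highest of all 8 arrays, so the groups overlapped. The difference of 2.13 had an SE of 1.22 and did not pass limma's test (adjusted p = 0.391).

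The remaining steps of the pathway could not be tested on these arrays. Over all named genes 32.5% had a probe well above background on at least 1 array. None of the 11 leukotriene conjugation and breakdown genes and none of the 11 prostanoid synthase and breakdown genes with a probe passed the filter, although 3 of each had a probe well above background on at least 1 array. Of 23 receptors and transporters 18 had a probe, 4 of these were well above background on at least 1 array and none was tested. PTGER4, a prostaglandin E2 receptor, had the call on before-calving replicates 1 and 3, at 30.5 and 43.0, while its after-calving readings lay between -8.43 and 6.17. PLA2G7, which breaks down platelet-activating factor, had it on the same arrays at 52.7 and 125, with 4.43, 26.7, 21.6 and 4.71 after calving. These signals are unscaled, and before-calving replicates 1 and 3 had the most probes well above background of all arrays (4177 and 4493). MGST3 had the call on 2 arrays of each time point. AKR1B1 and PTGIS each had a probe with it on 2 before-calving arrays and 1 after-calving array. None of these genes passed the filter.

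Markers of other blood cells moved between the times on the same arrays, and their part in the ALOX15 and ALOX5AP results was not tested. In bulk RNA fewer cells of a type and less RNA per cell cannot be told apart. Of the 3 tested T cell markers CD247 fell by 2.66 (SE 0.36) and CD3E by 2.03 (SE 0.14), while CD4 was at -0.13. The summed scaled signal of the 8 T cell markers, in multiples of an array's 75th percentile, was 3.90 to 4.41 on the brighter before-calving arrays and 1.02 to 1.24 on the brighter after-calving arrays. CSF1R of monocytes fell by 1.64 (SE 0.26) and GNLY of NK cells by 1.67 (SE 0.26), a limit because it was at the floor after calving, as CD3E was. LYZ of monocytes was at -0.38 and NKG7 of NK cells at -0.56, neither past the threshold. NKG7 was well above background on 4 before-calving arrays but on 1 after-calving array, so its -0.56 rests on dim after-calving readings. The monocyte sum was 3.31 to 4.96 before and 2.71 to 2.92 after, and the NK cell sum 0.31 to 0.48 before and 0 to 0.08 after.

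Eosinophils are a known source of ALOX15, and their markers were barely measurable here. Of 10 eosinophil markers 3 had a probe. CCR3 and RNASE2 were not well above background on any array, and GATA1 was so on after-calving replicate 3 alone. Of 6 basophil and mast cell markers, GATA2 had the call on 1 after-calving array and the other 4 with a probe on none. Of 9 platelet markers 4 had a probe, PF4, ITGA2B, ITGB3 and TUBB1, and none was well above background on any array, so their summed signal was 0 at both times.

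The neutrophil markers were mixed. Of 10 with a probe 6 were tested, and LTF, MMP9 and S100A12, which code for granule and cytosolic proteins, rose by 3.35, 2.11 and 2.27, the first 2 as limits since they were at the floor before calving. Second probes gave 1.80 for LTF and 0.54 for S100A12, neither past the threshold. CXCR1 was at -1.27 (limma's adjusted p = 0.0604), CXCR2 at -0.08 and S100A9 at 0.69. S100A8 and ITGAM were not well above background on any array. The neutrophil sum was 12.1 to 25.3 on the brighter before-calving arrays and 71.3 to 84.2 on the brighter after-calving arrays. Such a sum follows its brightest probes and does not stand for the markers as a set. Only LTF, MMP9 and S100A12 were called higher, and of these only S100A12 was above the floor before calving. The B cell sum overlapped between the times (0.35 to 1.12 and 0.44 to 0.86), and so did the erythroid sum (0.31 to 1.19 and 1.14 to 2.40).

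**Figure D5:**
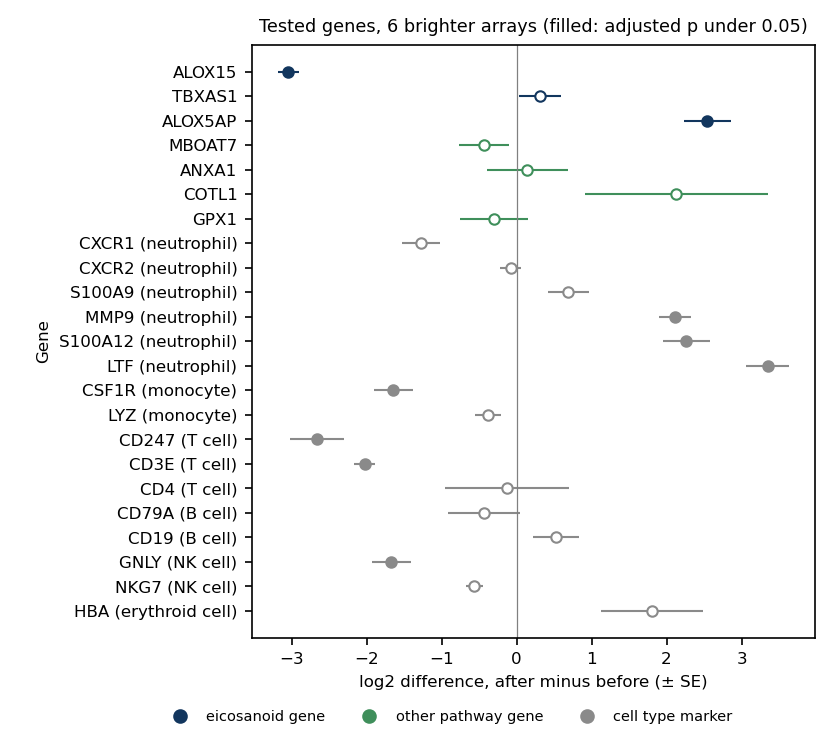
Difference after minus before calving on the log2 scale (± SE) for the tested eicosanoid genes, other pathway genes and cell type markers on the 6 brighter arrays (3 per time point). Filled circles passed limma's adjusted p of 0.05. ALOX15 lies at -3.04, ALOX5AP at 2.54 and TBXAS1 at 0.32, and the markers of a cell type spread, from -1.27 (CXCR1) to 3.35 (LTF) for neutrophils and from -2.66 (CD247) to -0.13 (CD4) for T cells.

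The genes whose pattern over the 6 brighter arrays was most like each member were found by the root mean square difference of the 6 centred log2 values. For ALOX15 these were UBE2G1 (0.34), ISG15 (0.40) and SDSL (0.41), which code for a ubiquitin-conjugating enzyme, an interferon-induced ubiquitin-like protein and a serine dehydratase-like protein. Each was lower after calving, by log2 differences of -2.47, -2.86 and -2.35, as limits, since each was at the floor on 1 or more after-calving arrays. For ALOX5AP they were ATP5MG (0.30), RPL10A (0.32) and PGLYRP1 (0.41), coding for an ATP synthase subunit, a ribosomal protein and a peptidoglycan-binding protein. Of these PGLYRP1 passed limma's test (2.41, adjusted p = 0.0220, a limit because it was at the floor before calving), while ATP5MG and RPL10A did not (adjusted p = 0.0692 and 0.0782). For TBXAS1 they were ARRDC1 (0.13), DRG2 (0.14) and PIGM (0.15), with differences of 0.18, 0.18 and 0.31 that did not pass limma's test, and DRG2 was at the floor on 4 arrays. Since most of the 6 values follow the time point, the likeness is a description over 6 arrays.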

How the data were processed

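Single-colour intensity was measured on 8 arrays. The deposited scanner files hold processed intensity and background-subtracted intensity per spot, written by Agilent Feature Extraction 10.10.1.1 per the file headers (9.1 per the submitters' processing notes), and the deposited series matrix holds log2 values whose rows were paired with probes through their order (lowest correlation of differences 0.999858). Matrix differences run the same way as the scanner values, its centring and scaling are not stated, and its columns' medians were -0.13, -0.03, -2.61 and 0.03 before calving and 0.03, 0.03, -0.06 and 0.02 after. Control spots and outlier spots were left out and spots of a probe averaged. Probe accessions were named through a RefSeq gene table (ARS-UCD2.0), which named 26832 of 43653 probes. The members, the gene lists and the choice of the 6 brighter arrays (over 2000 probes detected) were made with earlier results of these data known.

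A feature was the brightest probe of a gene, or an unnamed probe, called well above background by the software on every array of either time point. The named genes are the 9 members and every pathway gene so tested. Log2 values, scaled by the 75th percentile of probes detected on all arrays of the fit (118 for 8 arrays, 1111 for 6), went into lmFit and eBayes of limma 3.58.1 (R 4.3.3; two-sided, Benjamini-Hochberg, threshold 0.05). With 8 arrays the processed intensity was used. With 6 arrays the background-subtracted intensity was raised to a common floor, taken from the array whose lowest detected scaled signal was highest. The normexp alternative (offset 50) was planned on mean signals, which the files do not hold, and used median signals. Tested on simulated data for the 1954 features of 6 arrays, the fit recovered 35.8%, 80.6% and 90.9% of changes of 1, 2 and 3 log2 units, and 8.61% of its calls were false. The simulated spread was independent between features, with no effect shared by an array, slide or cow, so these rates need not hold for the real arrays. Exact permutation tests used scipy 1.17.1. The number of arrays limits the precision.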

Additional observations from a re-analysis of the deposited data

How the results depend on the processing

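ALOX15 stayed lower and ALOX5AP higher after calving in all 21 alternatives fitted on the 6 brighter arrays. The ALOX15 call was kept in 15 of these and the ALOX5AP call in 12. The kept ALOX5AP calls include those with before-calving replicate 4 added, where all 4 before-calving arrays were at the floor for this gene. Some alternatives change only the variance or the features tested, such as the trended robust eBayes, the replicate block and the detection call on every array. They left the differences at -3.04 and 2.54, so they do not test the direction. Leaving out each array in turn gave -3.16 to -2.96 for ALOX15, 2.31 to 2.79 for ALOX5AP, 1 to 2 members called and 6 to 128 features called (0 to 1 on 8 arrays). With normexp 47 features and 1 member were called, with ALOX15 at -1.53 and ALOX5AP at 1.95 (1.28 relative to the median of all features). The series matrix gave 5 features, 0 members, ALOX15 at -1.84 and ALOX5AP at 3.49, and the processed signal 10 features, 0 members, -2.85 and 2.48. Scaling over all probes gave 1 member, with ALOX5AP at 1.93 and TBXAS1 at -0.29, and the floor 1 log2 unit higher gave 23 features and 1 member, with ALOX5AP at 2.54. Requiring the detection call on every array gave 46 features, array weights 163 (11 on 8 arrays) and the trended robust eBayes 58. Adding before-calving replicate 4 gave 8 features, 1 member and ALOX15 at -0.63. The causes of these changes were not tested. Added after seeing the data, leaving out features at the floor on every array gave 31 features, 1 member and -0.63 with that replicate, and 58 features without the filter. The filter could not be dropped otherwise for 6 arrays, where most features have no variance at the floor, and on 8 arrays dropping it gave 1 feature. A fit with the replicate number as a block gave 0 features and 0 members, ALOX15 at -3.04 and ALOX5AP at 2.54 (adjusted p = 0.0941 for each by limma). Deviations of same-numbered arrays correlated at 0.09, -0.26 and 0.26 for replicates 1 to 3 of the 6 arrays. On all 8 arrays they correlated at 0.60, 0.23, -0.30 and 0.46 for replicates 1 to 4. Not every pair was above 0.1 and no label ties a number to a cow, so the main fits do not pair the samples. These correlations cannot show whether same-numbered arrays share a cow, and whether they do is not known. The dim signal limits all of this: 6 of 9 members did not pass the filter on 6 arrays.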

Other observations

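Within each time point, Dixon's criterion flagged no array against the other 3 in the 16 groups of 4 scaled values examined. These were the groups of the 4 members with a detected probe and of the 4 tested pathway genes. With 4 values the criterion can miss a dim array, so it does not show that the arrays agree. ALOX5AP on after-calving replicate 4, at -4.09 against -0.36 to 0.98 on the others, was not flagged. In the deposited series matrix the ALOX15 probe stood at 3.64, 3.17, -0.98 and -1.42 before calving and 0.32, 0.22, -0.22 and -3.14 after calving (centred log2, in the order of the replicates), so the before-calving array with the surface correction lay below after-calving replicates 1 to 3 there.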
